A study of Mus musculus with 6 samples.

Results

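The 77 genes described here carry symbols of mitochondrial ribosomal proteins, and all but Mrps36 encode such a protein. They were the rows, of 16874 in all, whose gene symbol began with Mrpl or Mrps and a number, 48 named for the large subunit and 29 for the small subunit. The study sequenced RNA of fibroblasts grown from the colon of 12-week-old C57BL/6 mice. Of the 6 libraries, 3 carry the label WT and 3 the label Prkcz-/-, the genotype without atypical protein kinase C zeta. The cells of both groups were untreated and were collected 24 h after plating. The series' design text also names control and Sox2 guides, but the labels of these 6 libraries give the genotype only, which leaves the presence of any guide in these cells unknown. Library titles within a group share a prefix and differ in a serial number, and nothing in the labels says that they came from separate mice or cultures. The p-values below therefore rest on the spread among these libraries, and that spread may be technical.

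Mitochondria hold their own ribosome, which makes the few proteins encoded by mitochondrial DNA. These are core subunits of the respiratory chain and of ATP synthase. The ribosomal RNAs come from mitochondrial DNA, while every ribosomal protein is encoded in the nucleus, made in the cytosol and imported. The small subunit decodes the messenger RNA and the large subunit joins the amino acids. Many of the proteins have counterparts in bacterial ribosomes, and others occur only in the mitochondrial ribosome.

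Expression was deposited as FPKM, a measure corrected for gene length and sequencing depth. It does not correct for differences in the make-up of libraries, so comparisons between libraries depend on the scaling. FPKM summed over all genes to 459388 to 486793 in the WT libraries and 441972 to 442730 in the others. No further scaling was applied in the main comparison. In the low values, the FPKM worth of 1 read in each library was 0.974 to 1.11 times that in WT library 1, and the 2 groups overlapped. The targeted gene went against its label. Prkcz measured 0.0433, 0.144 and 0.202 FPKM in WT libraries 1 to 3 and 1.35, 1.32 and 1.17 FPKM in those labelled Prkcz-/- (exact permutation test, two-sided p = 0.1, the smallest that 3 against 3 can give). Such a gene-wide level cannot tell which exons were transcribed. All directions below are for the libraries labelled Prkcz-/- relative to WT and mean no more than that. Of the fibroblast markers all 9 had rows, with a summed level of 5363 to 5648 FPKM in WT and 6881 to 7167 FPKM in the other group, but single markers went both ways. Pdgfra rose from 20.9 to 57.7 FPKM, while Dcn fell from 49.1 to 5.34 FPKM and Lum from 3.39 to 0.0921 FPKM. Epithelial markers summed to at most 0.611 FPKM and endothelial markers to at most 0.302 FPKM in any library, and immune markers to at most 2.46 FPKM. Glial markers summed to 0.562 to 0.814 FPKM in WT and 0.902 to 1.68 FPKM in the others, and those of interstitial cells of Cajal to 0.334 to 0.398 and 0.952 to 0.963 FPKM. Mesothelial markers summed to 5.13 to 5.87 FPKM in WT and 0.158 to 0.195 FPKM in the others. Smooth muscle markers summed to 32.6 to 34.2 FPKM in WT and 20.3 to 21.1 FPKM in the others. Nearly all of the smooth muscle sum was Smtn, with means of 32.2 and 19.7 FPKM. Des fell from 0.601 to 0.263 FPKM, while Myh11 went from 0.536 to 0.750 FPKM. The mesothelial sum was mostly Msln (5.44 and 0.131 FPKM), the Cajal sum mostly Ano1 (0.372 and 0.955 FPKM) and the immune sum mostly Cd68 (2.13 and 1.73 FPKM). A sum that rests on a single gene cannot show the share of a cell type. The part of these cell types in the results below was not tested.

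More mitochondrial ribosomal protein genes were lower than higher in the libraries labelled Prkcz-/-, and the differences were small. Of the 77 members, all of which passed the filter of a mean of at least 0.5 FPKM, 40 fell and 12 rose (limma, adjusted p under 0.05 after Benjamini-Hochberg adjustment over 12130 genes). The 40 that fell are 51.9% of members, beside 37.2% of all genes tested, and the 12 that rose are 15.6%, beside 31.5%. The median log2 difference over members was -0.17, beside -0.04 over all genes, on the log2(FPKM + 0.5) scale used throughout. Only 4 members, Mrpl4, Mrpl18, Mrps35 and Mrps25, differed by at least 1.5-fold as well as passing the test, all of them lower. Of all genes tested 9.55% did so downward, 13.2% upward and 22.8% in either direction. Among other genes with mean levels in the members' range, 4.65 to 192 FPKM, this share was 18.7%. In that range 41.2% of genes fell and 30.6% rose. Among genes with 1466 to 4295 exonic bases, 43.6% of 39 members fell and 23.1% rose (median -0.07), beside 41.4% and 28.9% of 4692 other genes (median -0.08). There the members' share of falls was close to that of other genes. Rescaling without short RNA genes gave 30 members lower and 16 higher, beside 3659 and 4419 of all genes. FPKM are shares of a library, so in these bulk samples fewer cells of a type and less RNA per cell cannot be told apart.

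Genes that fell outnumbered those that rose in both subunits, as they did over all genes tested (37.2% lower, 31.5% higher). Of 48 large subunit genes 25 fell (52.1%) and 8 rose (16.7%), with a median log2 difference of -0.16. Of 29 small subunit genes 15 fell (51.7%) and 4 rose (13.8%), with a median of -0.18. No test of the difference between the subunits was made. The symbols do not follow the structure of the mammalian ribosome throughout, since Mrps30 and Mrps18a belong to the large subunit there and Mrps36, kept by its symbol, encodes a protein of the ketoglutarate dehydrogenase complex. Placed by structure, 26 of 50 large subunit genes fell (52%) and 8 rose (16%). Of 26 small subunit genes so placed, 13 fell (50%) and 4 rose (15.4%). Summed over genes by symbol, large subunit FPKM were 1.92, 1.86 and 1.88 times small subunit FPKM in WT libraries 1 to 3 and 1.92, 1.95 and 1.96 times in the libraries labelled Prkcz-/-. WT library 1 lay at 1.918 and the nearest library of the other group at 1.921, so that the groups were barely apart in this ratio. All members together made up 0.791%, 0.759% and 0.769% of the FPKM sum in the WT libraries and 0.718%, 0.723% and 0.734% in the others. Each WT share was above each share in the libraries labelled Prkcz-/-.

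**Figure D1:**
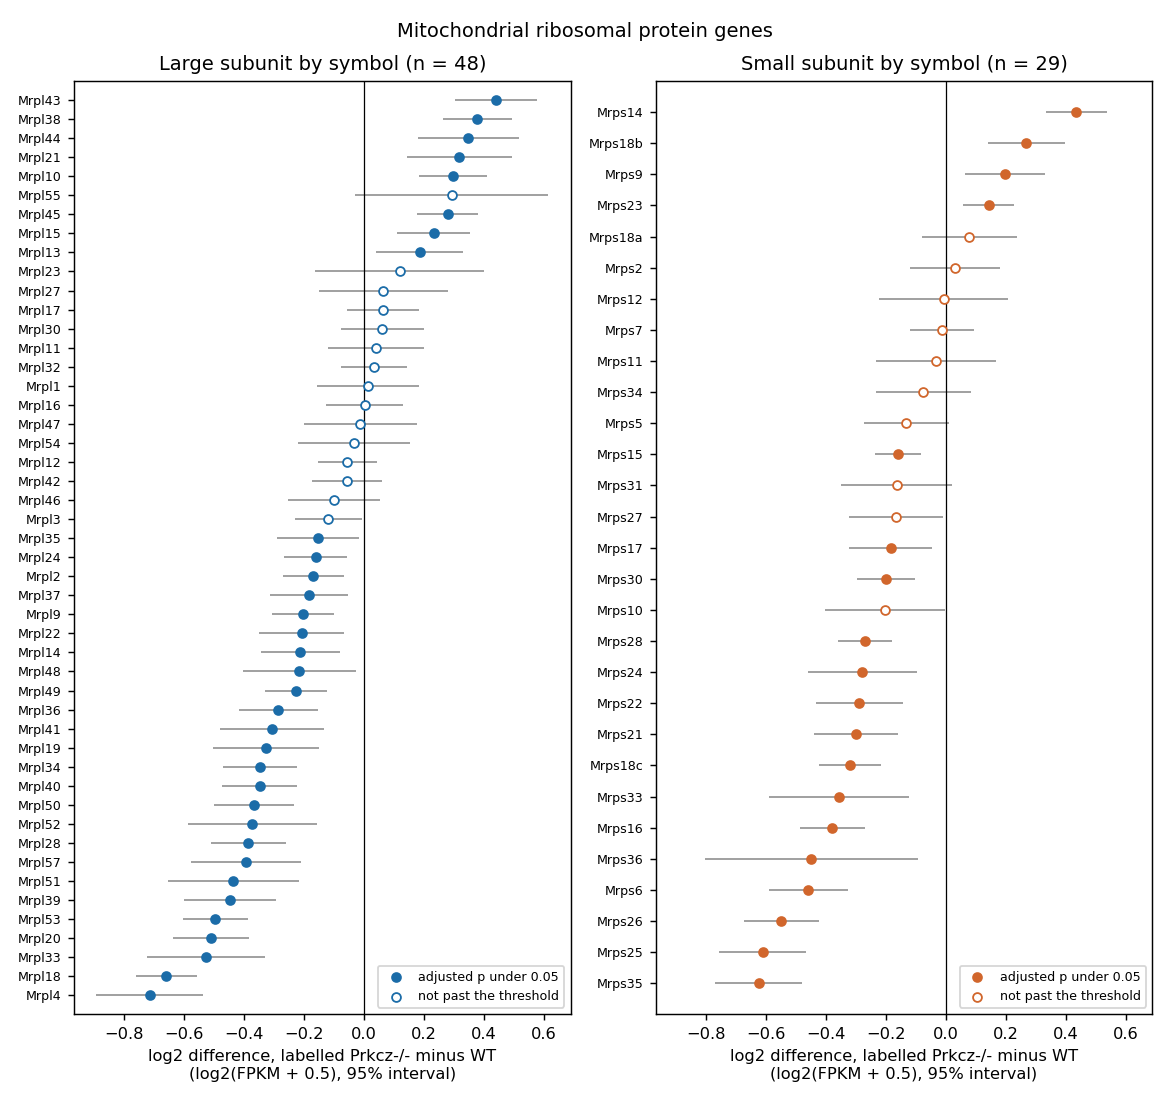
Log2 difference of each of the 77 members (labelled Prkcz-/- minus WT, on log2(FPKM + 0.5)), with large subunit genes on the left and small subunit genes on the right by symbol. Points are limma estimates from 3 libraries per group, bars are 95% intervals and filled points passed an adjusted p under 0.05. Both subunits run from about 0.6 or 0.7 below to 0.44 above 0, with most points on the lower side.

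Levels of the members spanned a wide range in both groups. The mean over the 6 libraries ran from 4.65 FPKM for Mrps36 to 192 FPKM for Mrpl33, with a median of 34.2 FPKM. The level was at least 10 FPKM for 69 members and at least 100 FPKM for 9. Mrpl33 led its subunit, followed by Mrpl13 and Mrpl30. Mrps6, Mrps21 and Mrps18c were the most abundant of the small subunit. Mrps21, the homologue of a small bacterial protein of the platform, measured 125, 125 and 111 FPKM in WT libraries 1 to 3 and 97.7, 92.0 and 103 FPKM in the others (log2 difference -0.30, SE 0.0604, limma adjusted p = 0.00270). Mrpl30, which did not pass the test, measured 138, 126 and 122 FPKM in WT and 138, 139 and 125 FPKM in the others. Its groups overlapped (log2 difference 0.06, 95% interval -0.08 to 0.20).

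The promoters of 4 members are shown because the ETS and NRF1 motifs each stand in members that fell and in members that rose. RefSeq promoter windows on GRCm38.p6, from 250 bases before to 50 bases after the annotated start, were found for 68 members. Nuclear respiratory factor 1 (NRF1) and the ETS factor GABP are known activators of nuclear genes for mitochondrial proteins. The ETS letters CCGGAAG were sought on both strands and stood in the windows of 25 of 68 members (36.8%), beside 20.7% of tested genes with a window and 8.86% of all 32851 windows. They were present in 15 of the 36 members with a window that fell, 4 of 9 that rose and 6 of 23 that did neither. The NRF1 letters, GCGC, any base and then TGCGC, were present in 13 of 68 members (19.1%), beside 12.0% of tested genes and 4.60% of all windows. These were 6 of 36 that fell, 3 of 9 that rose and 4 of 23 others. The YY1 letters AAGATGGC were in 12 members (17.6%, beside 5.48% of tested genes), 5 that fell, 0 of 9 that rose and 7 others. The E-box CACGTG was in 5 (7.35%, beside 12.0%), all 5 of which fell. The TATA letters TATAAA were in 5 (7.35%, beside 8.38%), 3 that fell and 2 that did neither. In 0 member windows did matches of different motifs overlap. A match describes letters only. For the ETS and the NRF1 letters in turn, the windows shown are those of the members with the lowest and the highest log2 difference, among members with the letters and a single window, on the gene's own strand. Capitals mark the motif for which a window was chosen, on either strand. The window of Mrps26 also holds 1 ETS match, on the opposite strand, left in lower case. Mrpl18 lies at chr17:12916042-12916341 (minus strand) and Mrpl43 at chr19:45006393-45006692 (minus strand), both with ETS letters. Mrps26 lies at chr2:130563507-130563806 (plus strand) and Mrpl44 at chr1:79775768-79776067 (plus strand), both with NRF1 letters.
Mrpl18: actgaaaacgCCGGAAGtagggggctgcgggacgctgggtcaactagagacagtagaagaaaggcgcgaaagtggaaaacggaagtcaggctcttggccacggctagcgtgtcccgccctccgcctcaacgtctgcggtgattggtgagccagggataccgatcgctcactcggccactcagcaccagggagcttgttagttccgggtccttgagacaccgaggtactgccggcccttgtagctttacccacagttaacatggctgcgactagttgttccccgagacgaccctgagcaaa
Mrpl43: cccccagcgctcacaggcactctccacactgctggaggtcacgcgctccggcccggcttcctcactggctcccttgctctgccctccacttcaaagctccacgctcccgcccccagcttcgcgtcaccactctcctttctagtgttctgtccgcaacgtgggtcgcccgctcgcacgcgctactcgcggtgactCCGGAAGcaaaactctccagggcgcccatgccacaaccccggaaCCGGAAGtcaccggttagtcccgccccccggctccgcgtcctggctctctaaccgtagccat
Mrps26: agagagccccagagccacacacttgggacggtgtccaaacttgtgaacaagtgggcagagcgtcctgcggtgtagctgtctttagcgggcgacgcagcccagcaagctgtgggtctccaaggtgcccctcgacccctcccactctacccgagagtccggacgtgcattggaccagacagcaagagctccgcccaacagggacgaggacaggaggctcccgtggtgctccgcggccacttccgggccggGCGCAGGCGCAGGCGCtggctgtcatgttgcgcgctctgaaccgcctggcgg
Mrpl44: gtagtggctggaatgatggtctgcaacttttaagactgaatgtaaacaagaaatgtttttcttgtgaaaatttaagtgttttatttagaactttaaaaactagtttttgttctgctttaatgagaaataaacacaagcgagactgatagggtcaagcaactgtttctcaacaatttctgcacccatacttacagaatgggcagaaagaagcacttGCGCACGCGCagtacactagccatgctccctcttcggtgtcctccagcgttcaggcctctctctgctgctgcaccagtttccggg
Positions are counted from the RefSeq start. The ETS letters begin 240 bases before that of Mrpl18 and at 56 and 12 bases before that of Mrpl43. In GENCODE the outermost start of Mrpl18 lies 254 bases further upstream, so that this window falls inside the annotated gene. For Mrps26 the distance is 15 bases, and for Mrpl43 and Mrpl44 it is 0. The window of Mrps26 holds 2 overlapping NRF1 matches, which begin 2 bases before the start and at base 5, with the start as base 1. That of Mrpl44 holds 1, which begins 35 bases before it.

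Mrpl4 and Mrpl18 fell most. Mrpl4 (chromosome 9, 21002738 to 21008839, plus strand), the homologue of a bacterial protein that lines the tunnel for the new peptide, measured 45.2, 39.4 and 38.2 FPKM in WT libraries 1 to 3 and 22.6, 26.0 and 25.6 FPKM in those labelled Prkcz-/-. Both groups lay well apart, with means of 40.9 ± 3.74 and 24.7 ± 1.87 FPKM (SD, n = 3). The log2 difference was -0.72 (SE 0.0768, limma adjusted p = 7.82e-05). Mrpl18 (chromosome 17, 12911349 to 12916345, minus strand), a protein of the central protuberance whose promoter is given above, measured 93.5, 83.6 and 87.5 FPKM in WT. In the others it measured 55.2, 55.6 and 56.0 FPKM, a narrow spread far below WT. Its log2 difference was -0.66 (SE 0.0440, limma adjusted p = 5.39e-06). Of its exon bases 10.1% are shared with Tcp1 on the other strand, which had a mean of 211 FPKM and a log2 difference of -0.58.

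Small subunit genes followed. Mrps35 (chromosome 6, 147042764 to 147073991, plus strand), a protein of the small subunit head found only in mitochondria, measured 36.7, 35.3 and 32.9 FPKM in WT and 24.4, 22.0 and 21.2 FPKM in the others. Its groups did not overlap (log2 difference -0.62, SE 0.0626, limma adjusted p = 5.36e-05). Mrps25, a further protein with no bacterial counterpart, measured 7.55, 7.10 and 6.82 FPKM in WT and 4.46, 4.47 and 4.59 FPKM in the others (log2 difference -0.61, SE 0.0619, limma adjusted p = 5.62e-05). That value is uncertain, because 69.8% of its annotated exon bases overlap exons of Nr2c2 on the other strand and the strand setting of the counting is not given in the sources used here. Mrps26, whose promoter is given above, measured 55.3, 51.8 and 49.0 FPKM in WT and 34.8, 37.2 and 34.2 FPKM in the others. The lowest WT value again stood above the highest of the other group (log2 difference -0.55, SE 0.0538, limma adjusted p = 4.65e-05).

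Large subunit genes completed the 8 members with the largest fall past the threshold. Mrpl33 measured 246, 215 and 217 FPKM in WT and 142, 153 and 177 FPKM in the others, with no overlap despite the widest spread of the 8 in FPKM (log2 difference -0.53, SE 0.0850, limma adjusted p = 7.80e-04). Mrpl20, whose bacterial homologue is needed early in assembly of the large subunit, measured 146, 126 and 139 FPKM in WT and 97.8, 93.0 and 96.9 FPKM in the others (log2 difference -0.51). Mrpl53, a protein with no bacterial counterpart, measured 86.3, 78.6 and 83.5 FPKM in WT and 61.0, 56.2 and 58.3 FPKM in the others (log2 difference -0.50). Neither gene's groups overlapped. The annotation places 88.0% of the exon bases of Mrpl53 also in Gm42688 on the same strand, so its level is uncertain. The other 32 members that fell had log2 differences from -0.46 to -0.15. The most abundant small subunit gene, Mrps6, was at the lower end of that range, with 171, 146 and 163 FPKM in WT and 116, 114 and 119 FPKM in the others. Of its exon bases 19.9% are shared with Gm49711 and 10.4% with Slc5a3, on the same strand.

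The members that rose did so by less. Mrpl43 (chromosome 19, 45004829 to 45006442, minus strand), a protein with no bacterial counterpart whose promoter is given above, measured 33.0, 30.6 and 35.8 FPKM in WT. The other libraries held 45.3, 46.6 and 43.6 FPKM, all above WT (log2 difference 0.44, SE 0.0590, limma adjusted p = 2.79e-04). Twnk, on the other strand, shares 33.4% of its exon bases. Mrps14 (chromosome 1, 160195215 to 160202170, plus strand), a protein of the small subunit head with a bacterial counterpart, measured 23.2, 22.1 and 21.3 FPKM in WT and 29.8, 31.1 and 29.7 FPKM in the others (log2 difference 0.44, SE 0.0441, limma adjusted p = 5.56e-05). Its groups lay clearly apart. Mrpl38, a protein of the central protuberance, measured 28.3, 25.2 and 27.4 FPKM in WT and 34.5, 34.9 and 36.0 FPKM in the others (log2 difference 0.38, limma adjusted p = 2.52e-04). Its groups were also apart. Mrpl44, a protein with an RNase III-like fold, measured 16.8, 14.9 and 18.2 FPKM in WT and 20.8, 22.2 and 20.9 FPKM in the others (log2 difference 0.35). Of its exon bases 7.66% are shared with Wdfy1 on the other strand, which had a mean of 19.7 FPKM and a log2 difference of 2.87. The part of Wdfy1 in the rise was not tested.

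Mrpl21, Mrpl10, Mrpl45 and Mrps18b made up the rest of the 8 with the largest rise past the threshold. Mrpl55 had a log2 difference of 0.29 but did not pass (limma adjusted p = 0.0934). Mrpl10 carries the stalk of the large subunit, where translation factors bind, and measured 47.5, 44.0 and 42.3 FPKM in WT and 56.9, 53.5 and 54.2 FPKM in the others (log2 difference 0.30, SE 0.0493, limma adjusted p = 9.24e-04). Gm11574, on the other strand, shares 14.1% of its exon bases. Mrpl45, which helps to fix the ribosome to the inner membrane, measured 25.3, 23.6 and 24.8 FPKM in WT and 28.8, 30.1 and 30.8 FPKM in the others (log2 difference 0.28). Mrpl21 measured 27.8, 24.0 and 26.6 FPKM in WT and 29.5, 34.9 and 33.7 FPKM in the others (log2 difference 0.32). In none of these 3 genes did the groups overlap. The other 4 members that rose, Mrpl15, Mrps9, Mrpl13 and Mrps23, had log2 differences from 0.14 to 0.23. Centring levels by chromosome turned Mrps23 to a call in the other direction (-0.13, limma adjusted p = 0.0284). With chromosome median deviations removed instead, Mrps23 was at -0.044 and did not pass (limma adjusted p = 0.319). Mrpl13, among the most abundant members, measured 137, 116 and 120 FPKM in WT and 138, 140 and 147 FPKM in the others, which just failed to overlap. Its call ended without any 1 library except WT replicate 1 (limma adjusted p = 0.0508 to 0.0991), and that of Mrps9 without WT replicate 2, Prkcz-/- replicate 2 or Prkcz-/- replicate 3 (0.0504 to 0.0612).

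**Figure D2:**
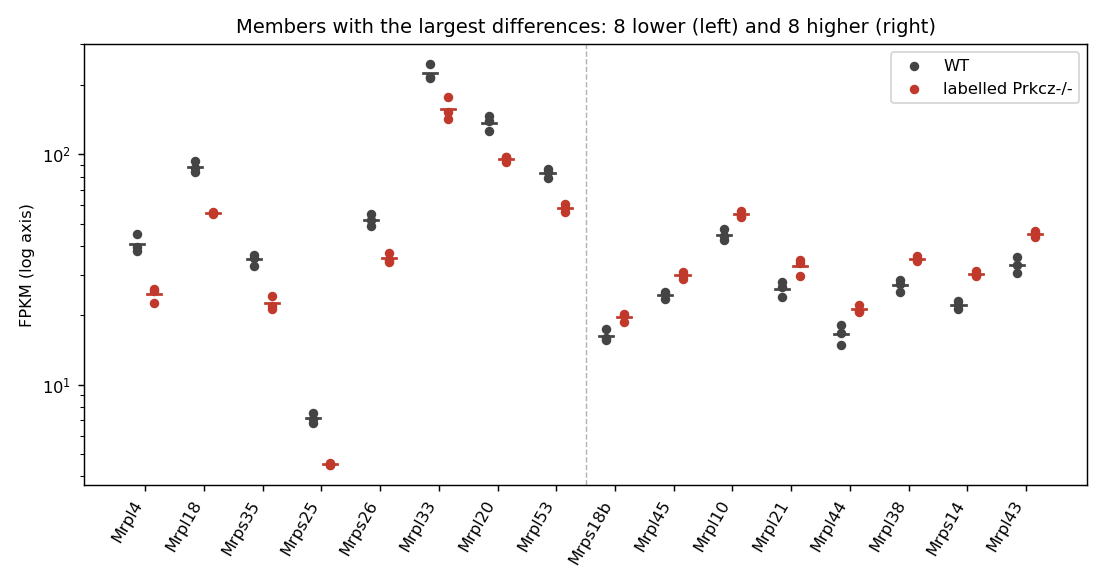
FPKM in each library (log axis) for the 8 members that fell most and the 8 that rose most among those past the threshold, with 3 WT and 3 labelled Prkcz-/- libraries as points and group means as short lines. In each of the 16 genes the groups do not overlap, from 4.46 FPKM for Mrps25 to 246 FPKM for Mrpl33.

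Another 25 members passed in neither direction, with log2 differences from -0.20 to 0.29. Among the flattest were Mrps12, the homologue of a bacterial protein at the decoding centre, Mrps7 and Mrps2 of the small subunit. Mrps12 measured 43.3, 47.8 and 38.4 FPKM in WT and 38.4, 46.6 and 43.8 FPKM in the others (log2 difference -0.01, 95% interval -0.22 to 0.21). Mrps2 measured 20.8, 17.4 and 18.2 FPKM in WT and 19.0, 19.0 and 19.5 FPKM in the others. Both genes' groups overlapped. Mrps7 measured 61.3, 54.5 and 58.3 FPKM in WT and 56.4, 57.6 and 58.5 FPKM in the others (log2 difference -0.01, 95% interval -0.12 to 0.10). In the large subunit they were Mrpl16, Mrpl47 and Mrpl1, the last a protein of the mobile stalk near the exit site. Mrpl16 measured 37.3, 36.4 and 32.9 FPKM in WT and 34.2, 35.5 and 37.0 FPKM in the others (log2 difference 0.00, 95% interval -0.13 to 0.13). Mrpl47 measured 22.6, 19.7 and 24.6 FPKM in WT and 20.7, 22.5 and 22.9 FPKM in the others, and Mrpl1 12.1, 9.88 and 10.6 FPKM in WT and 11.2, 10.8 and 10.8 FPKM in the others. Of the exon bases of Mrpl47, 13.9% are shared with Ndufb5 and 10.2% with Actl6a, on the other strand. Values of the groups overlapped in all of these genes. These intervals exclude differences of the size seen in Mrpl4, and a p that misses the threshold does not show that the levels are equal. Groups did not overlap for 53 of 77 members, 40 with lower and 13 with higher values outside WT. The same was true of 39.4% and 33.3% of all genes tested. WT library 1 held the highest WT value for 51 of 77 members, beside 33.1% of all tested genes. Without it 34 members fell and 14 rose.

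Of the 3 genes of the Mrps18 family, Mrps18c fell, Mrps18b rose and Mrps18a did not pass the test. Mrps18c, the counterpart of the bacterial protein in the small subunit, fell from 123, 115 and 119 FPKM to 96.1, 90.6 and 99.4 FPKM (log2 difference -0.32, SE 0.0446, limma adjusted p = 3.55e-04). Gm43511, on the same strand, shares 23.2% of its exon bases. Mrps18b, a small subunit protein at another place, rose from 16.0, 15.6 and 17.4 FPKM to 20.1, 20.3 and 18.8 FPKM (log2 difference 0.27, SE 0.0556, limma adjusted p = 0.00307). An antisense gene, Gm16279, covers 30.5% of its exon bases. Mrps18a, which sits in the large subunit, measured 48.1, 41.9 and 39.5 FPKM in WT and 46.3, 45.0 and 45.0 FPKM in the others, with overlapping groups (log2 difference 0.08, limma adjusted p = 0.327). That limma adjusted p was 0.0131 without WT replicate 1. Mrps18c was thus the most abundant of the 3 in every library and Mrps18b the least.

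Grouped by place in the ribosome, counts were small and mostly near the shares of all tested genes, 37.2% lower and 31.5% higher. In the central protuberance, 3 of 7 genes fell and 1 rose, the extremes being Mrpl18 and Mrpl38. Around the exit of the peptide tunnel, 3 of 8 fell (37.5%) and 2 rose (25%), with log2 differences from -0.45 for Mrpl39 to 0.35 for Mrpl44. At the stalk, Mrpl10 rose and Mrpl11 and Mrpl12 did not pass the test. In the small subunit head, 3 of 8 fell (37.5%) and 2 rose (25%), with Mrps35 and Mrps14 at the ends. Of 45 proteins with a bacterial counterpart 21 genes fell and 6 rose (median log2 difference -0.13), and of 31 without one 18 fell and 6 rose (median -0.22). These sites and classes were chosen with the values known, and no test was made between them.

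Direction differed by the chromosome on which a member lies. Over all other tested genes, the median log2 difference was between 0.19 and 0.29 on chromosomes 1, 10, 11, 15 and 19, at 0.08 on chromosomes 7 and 12, and between -0.23 and -0.05 on the rest. Of the 12 members that rose, 11 lie on the first 5 of these chromosomes. There 11 of 23 members rose and 3 fell, with a median of 0.14, beside 57.7% and 14.4% of 3096 other genes. On the remaining chromosomes 1 of 54 members rose and 37 fell, with a median of -0.24, beside 22.3% and 45.5% of 8491 other genes. The limit of 0.1 that separates the 5 chromosomes was chosen after seeing the values. On chromosome 6 all 7 members fell, beside 50.5% of its other genes. On chromosome 1, 4 of 5 rose and none fell, beside 57.3% and 15.3% of its other genes. Members of chromosome 11 were more mixed, where 4 of 10 rose and 2 fell, beside 53.3% and 16.0%. Mrps18b was the exception, rising on chromosome 17, where the median of other genes was -0.19. Across the 77 members, Pearson's r between a member's log2 difference and the median of the other genes of its chromosome was 0.69 (Spearman's rho 0.62). This is a description, since members of a chromosome share that median and all values share the 6 libraries. What moves with the chromosome was not tested.

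**Figure D3:**
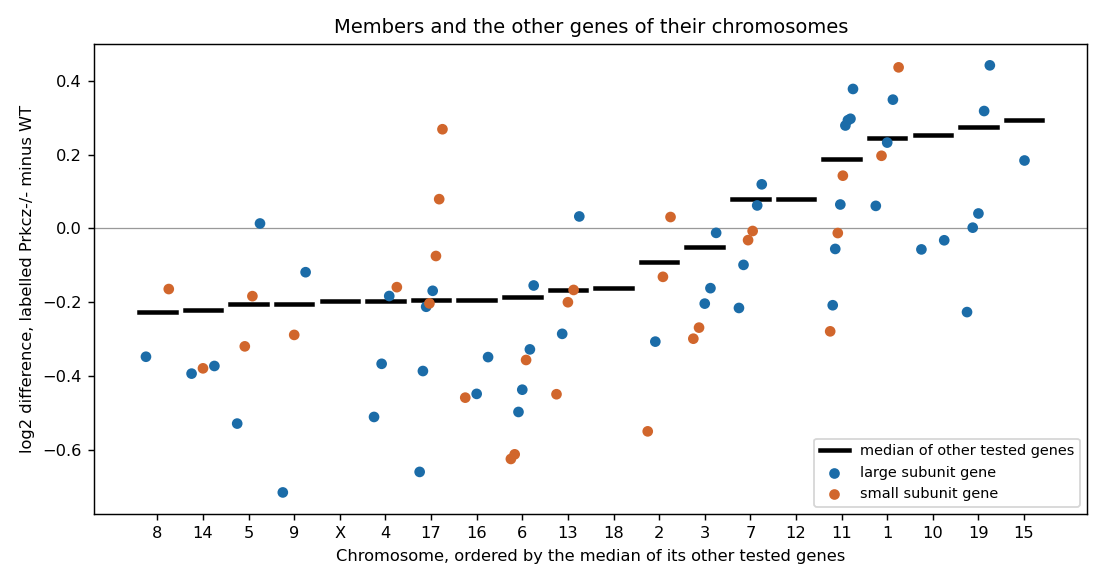
Log2 difference (labelled Prkcz-/- minus WT) of each member by chromosome, with large subunit genes in blue and small subunit genes in orange, and a black bar for the median of the other tested genes of that chromosome. Chromosomes are ordered by that median, from -0.23 to 0.29, and members tend to lie higher towards the right, with wide scatter within a chromosome.

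Set against their own chromosomes, fewer members rose than among all genes. In a fit added after seeing the data, the median deviation of each chromosome's genes from their own means was subtracted in each library, which brought the median over all genes to 0.00 on the log2 scale. Then 28 members fell (36.4%) and 7 rose (9.09%), with a median of -0.12, beside 31.1% and 30.7% of 11664 genes (limma adjusted p under 0.05). In the large subunit 19 of 48 fell and 4 rose, and in the small subunit 9 of 29 fell and 3 rose. Those that rose were Mrps18b, at 0.46 (adjusted p = 2.54e-04), Mrps18a, Mrpl1, Mrps14, Mrpl32, Mrpl38 and, at 0.16 (adjusted p = 0.0483), Mrpl43. Mrpl10, Mrpl45, Mrpl21 and Mrpl44 no longer passed, at 0.04 to 0.11. Mrpl16, flat in the first fit, fell to -0.28, and Mrps7, Mrpl12 and Mrpl42 fell to -0.20, -0.24 and -0.30. The 8 members that fell most kept their call, with Mrpl4 at -0.52 and Mrpl18 at -0.47. A second setting subtracted the median level of each chromosome in each library instead. It does not remove the median difference of a chromosome, since the gene at the median level need not be the gene with the median difference, and it left the median over all genes at -0.06. It gave 37 members lower and 3 higher, beside 37.0% and 25.7% of all genes. On chromosome 13, Mrps27 passed as lower in that setting (-0.24) and was at -0.0027 in the added fit. Against the median of the other genes of their chromosomes, 54 of 77 members lay lower, 33 of 48 in the large and 21 of 29 in the small subunit. The SD among members went from 0.27 to 0.20 on the log2 scale when that median was taken away.

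Other ribosomal and respiratory genes were set beside the members. Of 76 genes for cytosolic ribosomal proteins 63 fell (82.9%) and 1 rose (1.32%), beside 37.2% and 31.5% of all genes tested. Their median log2 difference was -0.33. On the 5 chromosomes 8 of 18 fell (44.4%) and 0 rose, and on the others 55 of 58 fell (94.8%). Of genes other than members, 57.7% rose and 14.4% fell on the 5 chromosomes, and 22.3% rose and 45.5% fell on the others. Of 76 nuclear genes for subunits of the respiratory chain and ATP synthase 40 fell (52.6%) and 20 rose (26.3%), with a median of -0.22. On the 5 chromosomes 16 of 24 rose (66.7%, beside 57.7%) and 0 fell. On the others 39 of 51 fell (76.5%, beside 45.5%) and 4 rose (7.84%, beside 22.3%). Uqcrb, of complex III, fell from 228 ± 8.42 to 139 ± 7.47 FPKM (SD, n = 3, limma adjusted p = 5.10e-06). Rpl6, of the cytosolic large subunit, fell from 433 ± 18.2 to 284 ± 1.63 FPKM (SD, n = 3, limma adjusted p = 3.48e-06). No test of the members against these groups was made.

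**Figure D4:**
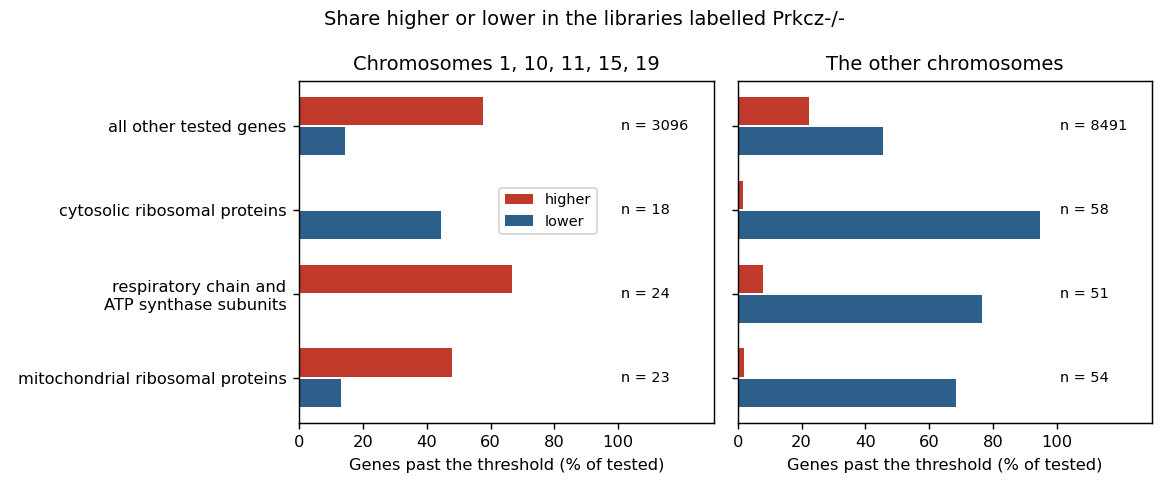
Percentage of tested genes that were higher (red) or lower (blue) in libraries with the Prkcz-/- label (limma, adjusted p under 0.05), for the members, respiratory chain and ATP synthase subunits, cytosolic ribosomal proteins and all other tested genes, on the 5 chromosomes with a median above 0.1 (left) and on the others (right). Members were higher in 47.8% and lower in 13.0% on the left, and higher in 1.85% and lower in 68.5% on the right.

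Genes that work with the mitochondrial ribosome moved both ways. Over all genes tested, 37.2% fell and 31.5% rose. Of 6 other subunits with names outside the Mrp series, 5 fell and 0 rose. Dap3, a GTP-binding protein of the small subunit, measured 24.3, 24.2 and 24.3 FPKM in WT and 17.7, 18.7 and 17.6 FPKM in the others (log2 difference -0.42, SE 0.0401, limma adjusted p = 3.92e-05). Chchd1 fell from 123 ± 6.97 to 93.0 ± 6.48 FPKM (SD, n = 3), and Gadd45gip1, Ptcd3 and Ict1 (an older symbol of Mrpl58) fell by smaller amounts. Aurkaip1 had a log2 difference of -0.16 (limma adjusted p = 0.0695). Of 27 genes for assembly and ribosomal RNA modification 12 fell (44.4%) and 6 rose (22.2%), with a median of -0.07. The RNA methyltransferase Trmt2b fell from 18.2 to 10.9 FPKM and the RNA-binding protein Fastkd2 rose from 7.15 to 10.0 FPKM. Of 18 translation factors and partners 10 fell (55.6%) and 1 rose (5.56%), with a median of -0.20. Among those that fell were the recycling factor Mrrf, from 12.8 to 9.20 FPKM, and the peptide deformylase Pdf, from 21.3 to 14.4 FPKM. Of 20 mitochondrial aminoacyl-tRNA synthetase genes and partners 6 fell (30%) and 5 rose (25%), near the shares of all genes (median -0.02). Cars2, which charges the transfer RNA for cysteine, fell from 12.3 to 7.24 FPKM.

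Of 12 genes that maintain or transcribe mitochondrial DNA 4 rose (33.3%, beside 31.5% of all genes tested) and 1 fell (8.33%, beside 37.2%), with a median log2 difference of 0.16. The transcription elongation factor Tefm rose from 7.63 ± 0.347 to 11.4 ± 0.820 FPKM (SD, n = 3), and Ssbp1, which binds single-stranded mitochondrial DNA, fell from 28.0, 27.0 and 26.5 FPKM to 19.8, 20.5 and 19.7 FPKM. Tefm lies on chromosome 11 and Ssbp1 on chromosome 6, whose other genes had medians of 0.19 and -0.19. In the list of regulators of mitochondrial biogenesis 7 of 16 rose (43.8%) and 4 fell (25%). Myc stood at 19.2 ± 2.43 FPKM in WT and 43.3 ± 1.23 FPKM in the others (SD, n = 3). Myc, Prkaa1 and Atf4, the 3 with the smallest p in that list, all rose and all lie on chromosome 15. Of 26 protein import genes 16 fell (61.5%) and 4 rose (15.4%), with a median of -0.25. Timm8b, a chaperone of the intermembrane space, fell from 123 ± 6.68 to 75.1 ± 2.98 FPKM (SD, n = 3). Of 8 mitochondrial protease genes 5 fell (62.5%) and 1 rose (12.5%), Spg7 falling from 39.4 to 30.7 FPKM and Lonp1 rising from 55.4 to 65.4 FPKM.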

How the data were processed

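The submitters' processing notes name STAR, DESeq2 and the mm10 build, without roles or versions. How reads were assigned to genes, and with which annotation and strand setting, is not given in the sources used here. FPKM values, deposited by the authors in 1 column per library with no counts, were the starting point. Genes averaging under 0.5 FPKM across the 6 libraries were left out, and log2(FPKM + 0.5) was compared between 3 WT and 3 Prkcz-/- libraries with limma 3.58.1 in R 4.3.3 (lmFit, eBayes with a variance trend, two-sided, Benjamini-Hochberg). The fold changes understate those of low genes. Depth is known only relatively, from steps in values under 0.15 FPKM.

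The members and lists were chosen with earlier results of these data known. Values per library are given for the 8 members with the largest change in each direction among those past the threshold, the 3 most abundant and the 3 flattest of each subunit and the Mrps18 family. From each list, genes were named among those with the smallest p and the highest level, and for the other subunits all 6. Positions, exon lengths and overlaps are from GENCODE M21 (GRCm38), and 32 members share exon bases with another gene. Of 12130 tested genes, 11664 had a chromosome by symbol. Motifs were sought in RefSeq promoter windows. An alternative, removing chromosome median deviations, was chosen after seeing the data. The other alternatives were other pseudocounts, filters, scalings, variance models, library weights, thresholds, the replicate number as a block, and leaving out each library.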

Additional observations from a re-analysis of the deposited data

How the results depend on the processing

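Beside the threshold of 1.5-fold, 20 of the 52 called members kept their call under all 19 alternatives, 18 that fell and 2 that rose (Mrps14 and Mrps18b). With chromosome medians of level removed, 3 members rose, all of the small subunit (0 in the large), and the large subunit median was -0.20. Under that setting Mrps23 turned to -0.13 and passed as lower, Mrpl13 to -0.087, Mrps9 to -0.091, Mrpl15 to -0.055, Mrpl21 to -0.022 and Mrpl35 to 0.020, while Mrpl16 fell to -0.34, Mrpl11 to -0.30 and Mrpl30 to -0.23 on the log2 scale. With chromosome median deviations removed, chosen after seeing the data, 7 members rose (4 in the large subunit), 9 fell in the small subunit and its median was -0.079. Calls ended with a turned sign for Mrps17 (0.022), Mrpl37 (0.0098), Mrpl2 (0.021), Mrps15 (0.034), Mrpl35 (0.047), Mrps23 (-0.044), Mrpl13 (-0.11), Mrps9 (-0.039) and Mrpl15 (-0.0031). Mrpl16 (-0.28), Mrpl11 (-0.24) and Mrpl30 (-0.17) passed as lower. With a change of at least 1.5-fold also asked for, 0 members rose and 4 fell (2 in each subunit, with 0 higher in each), and 1603 genes rose and 1159 fell over the whole table. The median over members was -0.087 with rescaling without short RNA genes (-0.078 in the large and -0.10 in the small subunit). Median-ratio scaling gave -0.12 in the large and -0.14 in the small subunit, and quantile normalization gave -0.081 in the large subunit. Without short RNA genes 30 members fell and 16 rose. Leaving out each library in turn gave 34 to 39 lower and 10 to 14 higher members, with medians from -0.18 to -0.13, and small subunit medians from -0.21 to -0.13. With the replicate number as a block, 39 members fell and 12 rose. The correlation of deviations between same-numbered libraries was 0.06, 0.01 and 0.01, and between libraries of other numbers -0.07 to 0.06. Such values cannot tell whether same-numbered libraries share a culture, animal or batch. The cause of the differences between settings was not tested. Mrps36, the member with the lowest level, lost its call under 7 settings beside the 1.5-fold threshold. Absolute depth was not derived here, so no limit from depth is given.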
